A study of Mus musculus with 9 samples.

Results

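The transcripts of 10 genes of high-density lipoprotein (HDL) metabolism and sterol efflux, Abca1, Abcg1, Abcg5, Abcg8, Scarb1, Pltp, Lcat, Apom, Mylip and Lpcat3, were measured in mouse liver. Their probes were found by gene name, from a list of genes drawn up with earlier results of these data known, and were 12 of the 41174 probes on the array. All 12 probes passed the filter on low signal, as did 26477 of the 41174 probes in all, which gave 17636 features (1 per gene, its brightest probe) to test. All mice were C57bl/6J males that had been on their diet for 12 weeks and were 16 weeks old. The HFD+APS group ate a high-fat diet (HFD) with fat at 60 kcal% that contained 40 g of Astragalus polysaccharides (APS), carbohydrates from a plant used in Chinese medicine, per kg of diet. The HFD group ate that high-fat diet alone, and the chow group ate standard food. Each group held 3 livers with 1 array each, which the authors selected among 24 mice from HE staining and TG measurements, so p-values measure the spread between these selected livers. HFD+APS was compared with HFD, where the diets differ by the added APS, HFD with chow, and HFD+APS with chow. The 3 comparisons share their groups and are not independent.

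HDL carries cholesterol from tissues to the liver, where it is taken up, stored, or secreted into bile as cholesterol or bile acids. ABC transporters load cholesterol and phospholipid onto HDL or into bile, plasma enzymes and transfer proteins remodel the particle, and scavenger receptor B1 takes up its cholesteryl ester. The liver X receptors (LXRs), nuclear receptors for oxysterols, are known to induce Abca1, Abcg1, Abcg5, Abcg8, Pltp, Mylip and Lpcat3.

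Values are log2 fluorescence of a gene's probe relative to the 75th percentile of its array, where 0 is that percentile, and levels are compared between groups for the same probe only. A gene is said to have risen or fallen when the adjusted p of limma's moderated test over all 17636 features was under 0.05. Of the 10 genes, 1 (Pltp) rose in HFD against chow, where 10.9% of all features passed (4.55% rose and 6.38% fell), and 5 (Abcg1, Abcg5, Apom, Mylip and Pltp) had an unadjusted p under 0.05, against 31.4% of all features. When HFD+APS was set against HFD, 0 of the 10 passed in limma, against 1.5% of all features (0.476% rose and 1.03% fell), and 2 (Apom and Scarb1) had an unadjusted p under 0.05, against 17.9% of all features. Against chow, 1 gene (Scarb1) rose in HFD+APS, where 3.47% of all features passed (0.958% rose and 2.51% fell), and 7 had an unadjusted p under 0.05, against 25.2% of all features. With 1, 0 and 1 calls among 10 genes, the counts of calls are not set apart from these background shares.

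The 3 chow arrays lay on 1 slide, the 3 HFD arrays and HFD+APS 1 on another, and HFD+APS 2 and HFD+APS 3 on the third, so that slide and diet cannot be told apart in the comparisons with chow. In HFD+APS against HFD they can be told apart only through HFD+APS 1, since HFD+APS 2 and HFD+APS 3 share no slide with the HFD arrays. Spots called well above background made up 54.1 to 64.5% of those on the HFD+APS arrays, 50.4 to 53.9% on the HFD arrays and 61.5 to 68.4% on the chow arrays. HFD+APS 1, on the slide of the HFD arrays, was at 54.1%, and HFD+APS 2 and HFD+APS 3 were at 63.5 and 64.5%. Every array of that slide was thus below every array of the other slides. The scaling signal at the 75th percentile ran between 209.7 (chow 2) and 264.7 (HFD 2). Summed hepatocyte marker signal, over the 7 of 9 markers that were tested, was 1909 to 2602 times the scaling signal in HFD+APS, 2073 to 2353 times in HFD and 2104 to 2337 times in chow, and 0 of the 7 were below background on every array of a group. This sum is weighted to its brightest markers, Alb and Fgb. Of the 7, Cps1 rose in HFD+APS against HFD by 1.11 ± 0.19 (limma adjusted p = 0.0347), where 1.5% of all features passed. Ttr stood at -0.61 ± 0.19 there (limma adjusted p = 0.161). In HFD against chow and in HFD+APS against chow 0 of the 7 passed.

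Pltp encodes phospholipid transfer protein, which moves phospholipid from triglyceride-rich lipoproteins onto HDL. Its level was 0.21, 0.81 and 0.44 in HFD+APS, 1.48, 0.55 and 0.79 in HFD, and 0.02, -0.59 and 0.02 in chow. All HFD livers were above all chow livers, with HFD 1 the highest, and the HFD+APS livers overlapped the HFD livers while lying above the chow livers. Pltp averaged 0.94 ± 0.49 in HFD and -0.18 ± 0.35 in chow (SD, n = 3 each), a rise of 2.18-fold with a 95% interval of 1.39 to 3.41 (log2 difference 1.12 ± 0.28 SE, limma adjusted p = 0.042). In a bulk liver, more cells of a type and more RNA per cell cannot be told apart. The HFD+APS livers differed from the HFD livers by -0.46 ± 0.28 on the log2 scale, with an interval of -1.10 to 0.19 (limma adjusted p = 0.431), and within the slide that holds both groups HFD+APS 1 stood 0.73 below the mean of the HFD arrays. From the chow livers they differed by 0.67 ± 0.28 (limma adjusted p = 0.187).

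The call of Pltp in HFD against chow depended on every chow and HFD array. Its log2 difference stayed positive, at 0.85 to 1.32, in all 9 fits that each left out 1 array. Leaving out chow 2, the lowest, gave 0.92 (limma adjusted p = 0.127), and leaving out HFD 1, the highest, gave 0.85 (limma adjusted p = 0.083). The call was kept in 2 of the 9 fits that each left out 1 array, those without HFD+APS 1 or HFD+APS 2, and was lost without chow 1 (0.0691), chow 3 (0.081), HFD 2 (0.0527), HFD 3 (0.0831) and HFD+APS 3 (0.0678, adjusted p in each case). Pltp was read by a single probe on the minus strand of chromosome 2, whose 60 bases span 3957 bases of the genome (mm9, chr2:164666010-164669966) and so cross at least 1 intron. The probe is shown because the only call in HFD against chow depends on it.
Pltp probe: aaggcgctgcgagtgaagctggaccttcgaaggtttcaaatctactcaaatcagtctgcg

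**Figure D1:**
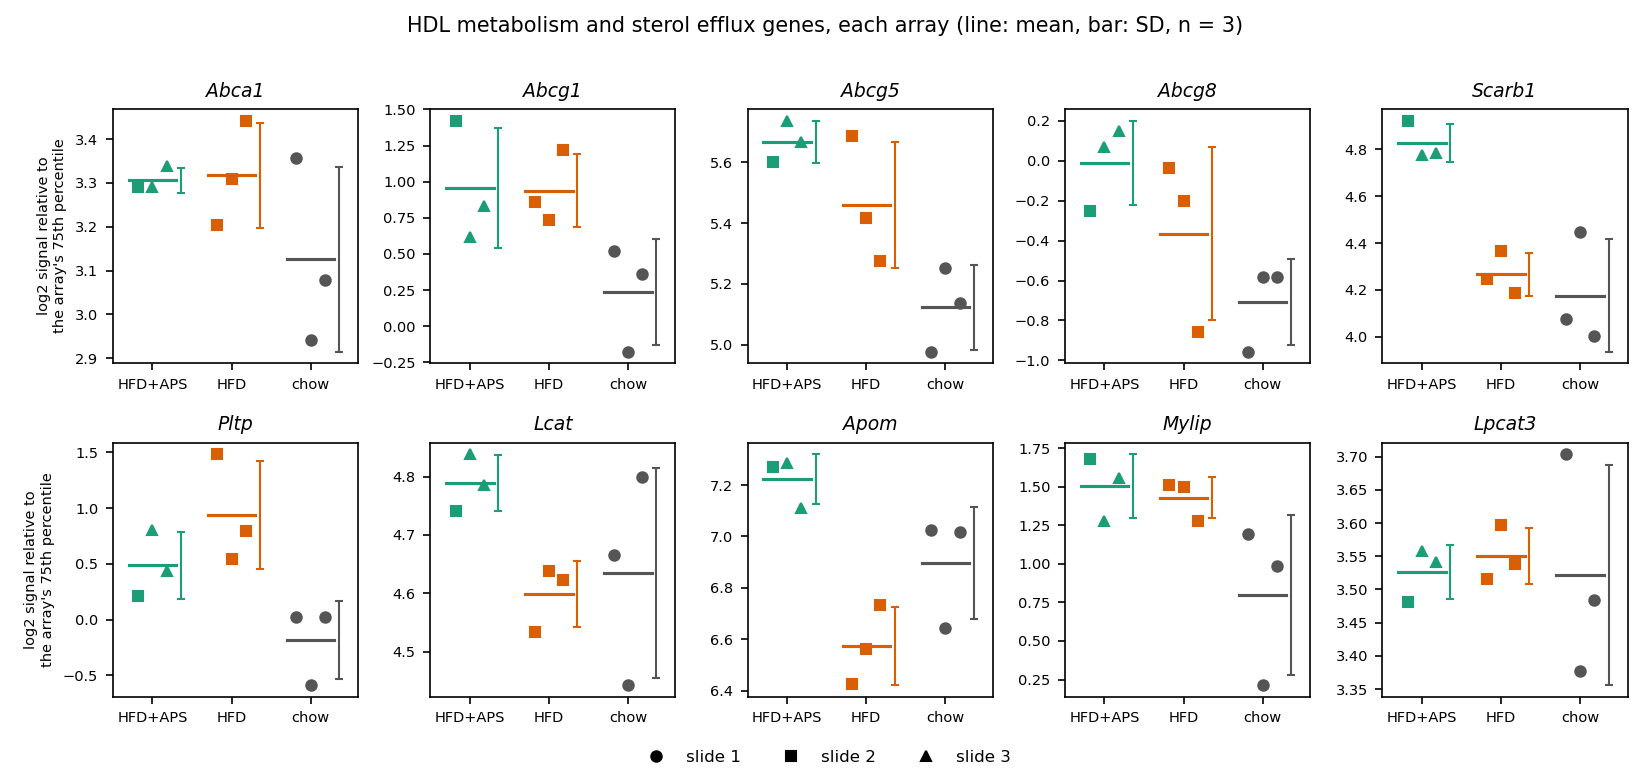
Each of the 10 genes on the 9 arrays, as log2 signal on the scale above (y axis, 0 is the array's 75th percentile), for HFD+APS, HFD and chow (x axis); points are arrays, shaped by slide, lines are means and bars are SDs (n = 3). Scarb1 and Apom lay higher in all HFD+APS livers than in all HFD livers, and Pltp lay higher in all HFD livers than in all chow livers.

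Scarb1 encodes scavenger receptor B1, which takes cholesteryl ester out of HDL at the hepatocyte surface without taking in the particle. Its level was 4.92, 4.78 and 4.79 in HFD+APS, 4.25, 4.37 and 4.18 in HFD, and 4.08, 4.45 and 4.002 in chow. The 3 HFD+APS livers stood above all 6 others, and HFD and chow overlapped. Scarb1 rose 1.57-fold in HFD+APS against chow (interval 1.27 to 1.95), with means of 4.83 ± 0.08 and 4.18 ± 0.24 (SD, n = 3 each) and a log2 difference of 0.65 ± 0.13 (limma adjusted p = 0.0429). Against HFD, whose mean was 4.27 ± 0.09, HFD+APS was 1.48-fold as high (log2 difference 0.56 ± 0.13, interval 0.25 to 0.87, higher in 3 of 3 livers). This did not pass (limma adjusted p = 0.0839). The limma adjusted p was 0.0582 to 0.201 in the fits without 1 array and 0.0459 to 0.182 over the other alternatives with a test. Within the slide that holds both groups HFD+APS 1 stood 0.66 above the HFD mean. That is also the estimate when slide is fitted as a fixed block, with a limma adjusted p of 0.182. HFD against chow gave 0.09 ± 0.13, with an interval of -0.22 to 0.40 (limma adjusted p = 0.684).

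The call of Scarb1 in HFD+APS against chow was lost whichever of the 9 arrays was left out, with log2 differences of 0.57 to 0.79 and limma adjusted p between 0.052 (without HFD 3) and 0.124 (without chow 3). Its probe lies on the minus strand at chr5:125757658-125757717 (mm9).

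Apom encodes apolipoprotein M, which sits mostly on HDL and carries sphingosine-1-phosphate. Its level was 7.27, 7.29 and 7.11 in HFD+APS, 6.43, 6.56 and 6.73 in HFD, and 7.02, 6.65 and 7.02 in chow. All HFD+APS livers were above all HFD and all chow livers, whereas HFD and chow overlapped through HFD 3 and chow 2. Apom averaged 7.22 ± 0.10 in HFD+APS and 6.57 ± 0.15 in HFD (SD, n = 3 each), 1.57-fold as high in HFD+APS (log2 difference 0.65 ± 0.14, interval 0.33 to 0.97). The difference did not pass (limma adjusted p = 0.0659), and within the shared slide HFD+APS 1 stood 0.70 above the mean of the HFD arrays. The limma adjusted p was 0.0578 to 0.188 in the fits without 1 array and 0.0273 to 0.18 over the other alternatives with a test. HFD stood at -0.32 ± 0.14 against chow (interval -0.64 to -0.0029, limma adjusted p = 0.156), and HFD+APS at 0.33 ± 0.14 (interval 0.01 to 0.65, limma adjusted p = 0.19). Apom was the only one of the 10 genes whose interval for HFD against chow lay below 0. Its probe is on the minus strand at chr17:35267047-35267106 (mm9).

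RefSeq promoter windows (build GRCm38.p6, 250 bases before to 50 bases after the start site) were matched for 8 of the 10 genes, in 9 windows. Half-sites for nuclear receptors were searched on both strands as AGGTCA and as GGGTCA and as GGTTCA. Also searched were 2 such half-sites spaced by 4 bases (DR4, the spacing of the LXR element) and the sterol regulatory element TCACNCCAC. Only these exact letters were counted. Only Apom and Lcat held any of them. The Apom window had GGGTCA 2 times, starting at positions -156 and -32 from the start site. Of the 32851 windows of the same length, 13.7% held GGGTCA at least 1 time, and the share with 2 matches was not counted. The Lcat window, on the minus strand at chr8:105943353-105943652, had GGTTCA 1 time on the opposite strand, starting at position -135, and 10.4% of windows held it. AGGTCA, in 16.3% of windows, DR4, in 0.0548%, and the sterol element, in 1.24%, were in 0 of the 8 genes. An LXR element whose half-sites differ from these letters is missed by the search. The 0 matches therefore do not show that these windows, that of Abca1 among them, lack an LXR element. The Apom window, on the minus strand at chr17:35131752-35132051, is shown for its 2 matches, in capitals, since Apom had the smallest p of the 10 genes in HFD+APS against HFD.
Apom promoter window: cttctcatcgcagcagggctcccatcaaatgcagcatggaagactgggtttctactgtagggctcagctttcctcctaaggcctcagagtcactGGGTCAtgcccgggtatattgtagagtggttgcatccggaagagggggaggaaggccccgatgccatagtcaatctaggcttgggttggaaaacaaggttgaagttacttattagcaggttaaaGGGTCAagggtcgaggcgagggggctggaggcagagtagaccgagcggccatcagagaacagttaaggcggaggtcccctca

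Lcat encodes lecithin-cholesterol acyltransferase, the plasma enzyme that esterifies cholesterol on HDL. Its level was 4.74, 4.84 and 4.79 in HFD+APS, 4.53, 4.64 and 4.62 in HFD, and 4.66, 4.44 and 4.80 in chow. The HFD+APS livers lay above the HFD livers, by less than the range of the chow livers. The difference was 0.19 ± 0.11 with an interval of -0.07 to 0.45 (limma adjusted p = 0.412). HFD stood at -0.04 ± 0.11 against chow (interval -0.29 to 0.22, limma adjusted p = 0.853) and HFD+APS at 0.15 ± 0.11 (limma adjusted p = 0.433). The Lcat probe lies at chr8:108463857-108463916 (mm9, minus strand).

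Abcg5 and Abcg8 encode the partner subunits of the transporter that secretes cholesterol and plant sterols into bile, and lie head to head on chromosome 17. Their RefSeq promoter windows lie on opposite strands and share 209 bases. The Abcg8 window that overlaps that of Abcg5 (GRCm38.p6, chr17:84682871-84683170, plus strand) is shown because both genes are transcribed outward from it. The bases between the 2 start sites are in capitals.
Abcg5 and Abcg8 window: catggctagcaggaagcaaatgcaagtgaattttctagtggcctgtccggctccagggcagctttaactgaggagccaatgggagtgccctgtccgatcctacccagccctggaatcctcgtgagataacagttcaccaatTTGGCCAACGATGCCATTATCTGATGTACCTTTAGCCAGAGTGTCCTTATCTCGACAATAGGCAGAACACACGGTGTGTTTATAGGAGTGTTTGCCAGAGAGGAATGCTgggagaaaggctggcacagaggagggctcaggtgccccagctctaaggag

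Abcg5 had levels of 5.60, 5.74 and 5.67 in HFD+APS, 5.69, 5.42 and 5.28 in HFD, and 4.98, 5.25 and 5.14 in chow. Every HFD+APS and every HFD liver lay above every chow liver, HFD 3 by the smallest margin, and HFD+APS overlapped HFD through HFD 1. HFD+APS was 1.46-fold as high as chow (log2 difference 0.54 ± 0.13, interval 0.24 to 0.85, higher in 3 of 3 livers), which did not pass (limma adjusted p = 0.058). The limma adjusted p was 0.0552 to 0.168 in the fits without 1 array and 0.0145 to 0.113 over the other alternatives. HFD stood at 0.34 ± 0.13 against chow (interval 0.04 to 0.64, limma adjusted p = 0.125). HFD+APS stood at 0.21 ± 0.13 against HFD (interval -0.09 to 0.51, limma adjusted p = 0.441), and at 0.14 within the shared slide.

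Abcg8, by the brighter of its 2 probes, had levels of -0.25, 0.07 and 0.15 in HFD+APS, -0.04, -0.20 and -0.86 in HFD, and -0.96, -0.58 and -0.58 in chow. The HFD+APS livers lay above all chow livers, and HFD overlapped HFD+APS through HFD 1 and HFD 2, and chow through HFD 3. The log2 difference of HFD+APS from chow was 0.70 ± 0.23, 1.62-fold (interval 0.18 to 1.22, limma adjusted p = 0.112), that of HFD from chow 0.34 ± 0.23 (interval -0.18 to 0.86, limma adjusted p = 0.338), and that of HFD+APS from HFD 0.35 ± 0.23 (interval -0.17 to 0.88, limma adjusted p = 0.446). Within the shared slide HFD+APS 1 stood 0.11 above the HFD mean for Abcg8, and leaving out HFD 3 also put HFD+APS 0.11 above HFD. Both genes of the transporter, Abcg8 by this probe, had positive differences in each comparison. Abcg5 was read at chr17:85057604-85057663 (mm9, minus strand).

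The second Abcg8 probe (mm9, chr17:85094401-85094460) was dim. It was well above background on 2 of 3 HFD+APS arrays, 2 of 3 HFD arrays and 3 of 3 chow arrays, and read -3.28, -2.90 and -2.91 in HFD+APS, -2.33, -3.03 and -4.62 in HFD, and -2.97, -2.41 and -2.57 in chow. It ran opposite to the brighter probe (chr17:85098745-85098804) against chow, at -0.38 ± 0.50 in HFD+APS (limma adjusted p = 0.686) and -0.67 ± 0.50 in HFD (limma adjusted p = 0.395), and the 2 probes averaged put HFD at -0.16 from chow. The sign of the Abcg8 difference between HFD and chow therefore depends on the probe.

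**Figure D2:**
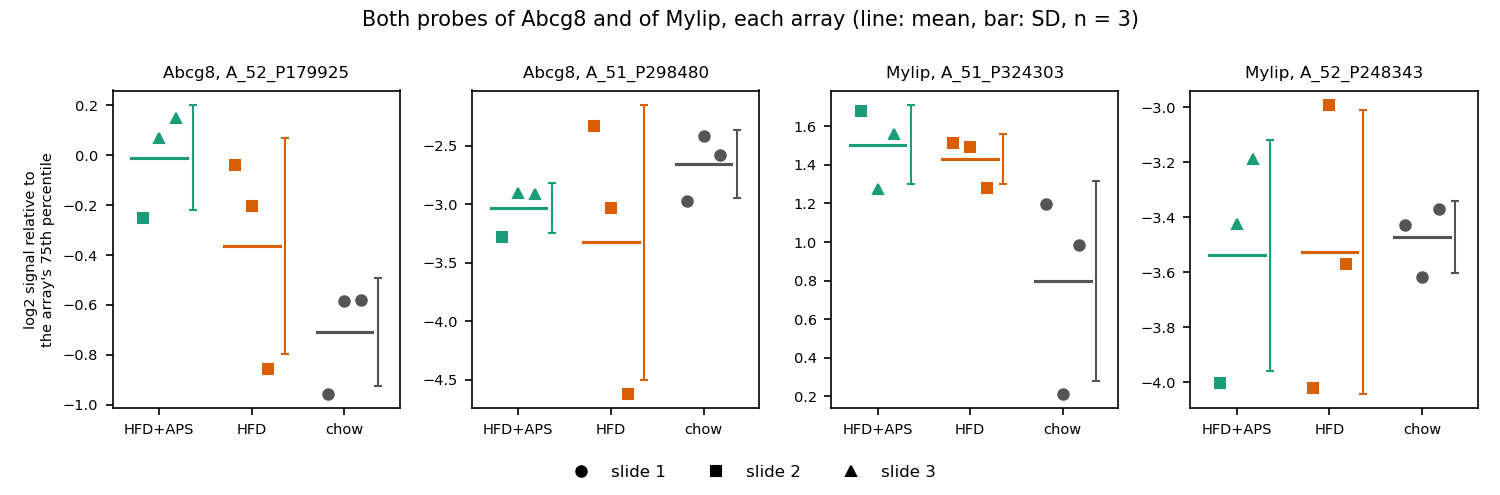
Both probes of Abcg8 and of Mylip on the 9 arrays, as log2 signal on the scale above (y axis, 0 is the array's 75th percentile), for HFD+APS, HFD and chow (x axis); points are arrays, shaped by slide, lines are means and bars are SDs (n = 3). The brighter probe of each gene is on the left of its pair, and in the dimmer probe all 3 groups overlap.

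Abca1 encodes the transporter that hands cholesterol and phospholipid to lipid-poor apolipoprotein A-I, the first step in making HDL. Its level was 3.29, 3.29 and 3.34 in HFD+APS, 3.20, 3.31 and 3.44 in HFD, and 3.36, 2.94 and 3.08 in chow. The HFD+APS livers lay inside the range of the HFD livers, and chow overlapped both through chow 1. HFD+APS against HFD gave -0.01 ± 0.13, with an interval of -0.30 to 0.28 (limma adjusted p = 0.973), and HFD against chow gave 0.19 ± 0.13, with an interval of -0.10 to 0.48 (limma adjusted p = 0.335). HFD+APS stood at 0.18 ± 0.13 from chow (limma adjusted p = 0.414). The Abca1 probe lies at chr4:53043944-53044003 (mm9, minus strand).

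Abcg1 encodes the transporter that exports cholesterol to HDL particles already formed, and is known for its role in macrophages. Its level was 1.42, 0.62 and 0.83 in HFD+APS, 0.86, 0.74 and 1.22 in HFD, and 0.52, -0.18 and 0.36 in chow. Both high-fat groups lay above all chow livers and overlapped each other. HFD was 1.63-fold as high as chow (log2 difference 0.70 ± 0.26, interval 0.11 to 1.29, limma adjusted p = 0.11), and HFD+APS stood at 0.72 ± 0.26 from chow (limma adjusted p = 0.136). HFD+APS against HFD gave 0.02 ± 0.26, with an interval of -0.57 to 0.61 (limma adjusted p = 0.978). Within the shared slide HFD+APS 1, the highest array, stood 0.48 above the HFD mean. Without chow 2 the difference of HFD from chow was 0.50 (limma adjusted p = 0.287). The Abcg1 probe lies at chr17:31252580-31252639 (mm9, plus strand).

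Mylip encodes a ubiquitin ligase, also called Idol, that limits the uptake of lipoproteins by cells. By its brighter probe (mm9, chr13:45506979-45507038) its level was 1.68, 1.28 and 1.56 in HFD+APS, 1.51, 1.49 and 1.28 in HFD, and 1.20, 0.21 and 0.98 in chow. Both high-fat groups lay above all chow livers, chow 2 far below the other two, and overlapped each other. The difference from chow was 0.71 ± 0.24 in HFD+APS (limma adjusted p = 0.126) and 0.63 ± 0.24 in HFD (interval 0.07 to 1.19, limma adjusted p = 0.123), and HFD+APS stood at 0.08 ± 0.24 from HFD (interval -0.48 to 0.63, limma adjusted p = 0.902). Without chow 2 the difference of HFD from chow was 0.34 (limma adjusted p = 0.244). The dimmer Mylip probe (chr13:45503808-45503867), well above background on 2 of 3 HFD+APS, 1 of 3 HFD and 3 of 3 chow arrays, gave -0.07 ± 0.28 in HFD+APS against chow and -0.06 ± 0.28 in HFD against chow.

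Lpcat3 encodes the acyltransferase that puts polyunsaturated fatty acids into membrane phospholipids. Its level was 3.48, 3.56 and 3.54 in HFD+APS, 3.52, 3.60 and 3.54 in HFD, and 3.70, 3.38 and 3.48 in chow. The 2 high-fat groups lay inside the range of the chow livers. HFD+APS against HFD gave -0.02 ± 0.11 (interval -0.27 to 0.22, limma adjusted p = 0.931), HFD against chow 0.03 ± 0.11 (interval -0.22 to 0.27, limma adjusted p = 0.88), and HFD+APS against chow -0.24 to 0.25 as its interval (limma adjusted p = 0.984). Its probe spans 169 bases at chr6:124653374-124653542 (mm9, plus strand).

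**Figure D3:**
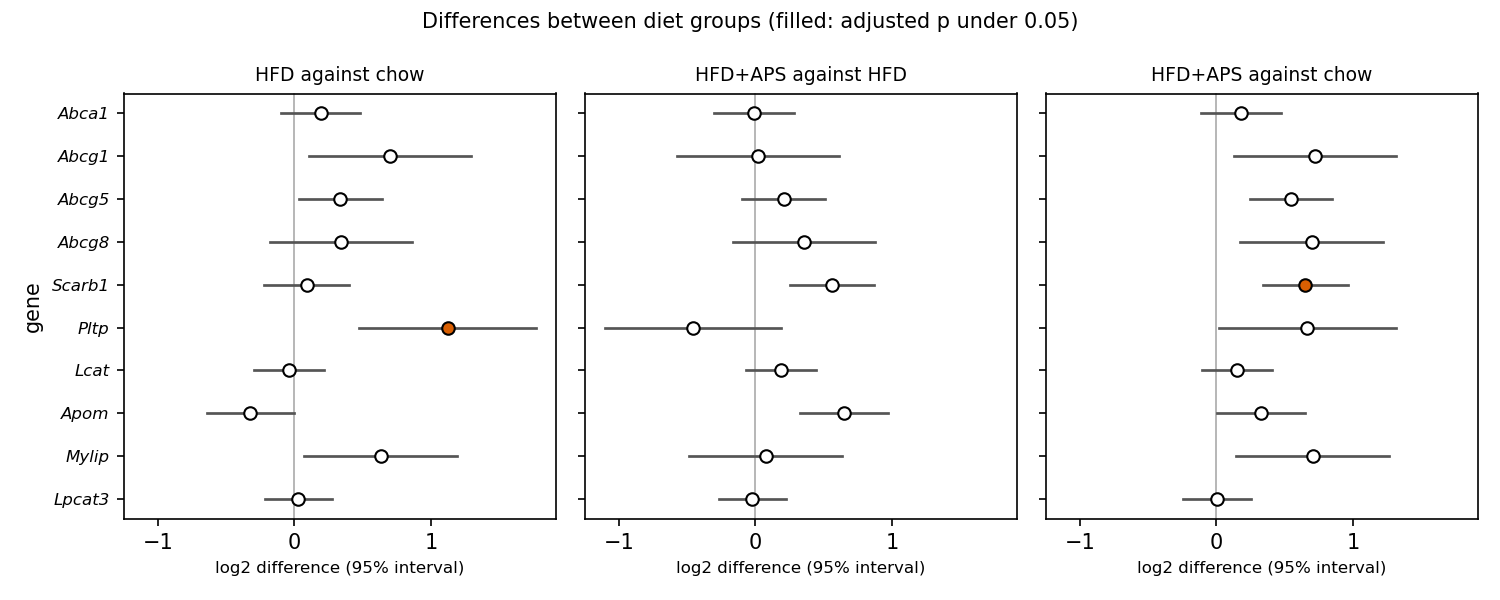
Log2 differences between diet groups for the 10 genes (x axis, genes down the page), in 1 panel per comparison; points are estimates, lines are 95% intervals from limma, and filled points have an adjusted p under 0.05. Pltp is filled at 1.12 in HFD against chow and Scarb1 at 0.65 in HFD+APS against chow, and 0 points are filled in HFD+APS against HFD.

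Set side by side, the 10 genes had 8 positive differences in HFD against chow, where 45.9% of all features were positive, 7 in HFD+APS against HFD (50.1%) and 10 in HFD+APS against chow (46%). Their median difference was 0.26, 0.13 and 0.60 in these comparisons, where the median of all features was -0.04, 0.00 and -0.03. Groups did not overlap for 4 genes in HFD against chow (Abcg1, Abcg5, Mylip and Pltp), all higher in HFD, against 38.9% of all features and 16.6% higher. They did not overlap for 3 genes in HFD+APS against HFD (Apom, Lcat and Scarb1), all higher in HFD+APS, against 24.5% of all features and 12.6% higher. Between HFD+APS and chow the groups did not overlap for 7 genes (Abcg1, Abcg5, Abcg8, Apom, Mylip, Pltp and Scarb1), all higher in HFD+APS, against 30.9% of all features and 12.7% higher. These counts describe a list that was not tested as a set. The sign of a difference near 0 depended on the setting: under quantile normalization Lpcat3 was at -0.034 in HFD+APS against chow and -0.00095 in HFD against chow, and under array weights Abca1 was at 0.021 and Abcg1 at -0.020 in HFD+APS against HFD.

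Markers of other cell types were measured beside Pltp, Abcg1 and Mylip. Summed over the 12 Kupffer cell markers, all of them tested, the signal relative to the scaling signal was 134.7, 63.5 and 87.1 in HFD+APS, 120.7, 82.2 and 108.9 in HFD, and 54.2, 45.9 and 76.3 in chow. All HFD livers were above all chow livers. The markers had a median log2 difference of 1.04 in HFD against chow, -0.13 in HFD+APS against HFD and 0.87 in HFD+APS against chow. Of the 12, 0 passed in limma in each comparison, against 10.9%, 1.5% and 3.47% of all features, and 8, 0 and 5 had an unadjusted p under 0.05, against 31.4%, 17.9% and 25.2% of all features. Summed over 8 of 10 markers of monocyte-derived macrophages, the signal was 31.8, 17.8 and 23.3 in HFD+APS, 33.5, 40.0 and 81.1 in HFD, and 18.8, 17.6 and 18.5 in chow. Of these 8, Ly6c2 and Trem2 rose in HFD against chow, and 0 passed in HFD+APS against HFD or against chow. At an unadjusted p under 0.05 were 6, 2 and 4 of the 8, against the same shares of all features. Cd9 of this list and Marco of the Kupffer list went the other way in HFD against chow. They stood at -0.71 ± 0.26 and -0.56 ± 0.69 (limma adjusted p = 0.113 and 0.616). In either list, 0 of the markers were below background on every array of a group. The sum over 9 endothelial markers was also lower in chow, at 64.9 to 74.9 in HFD+APS, 59.6 to 71.6 in HFD and 30.1 to 49.7 in chow. Of these 9, Clec4g and Oit3 rose in HFD against chow and Fcgr2b rose in HFD+APS against chow. At an unadjusted p under 0.05 were 7 in HFD against chow, 0 in HFD+APS against HFD and 6 in HFD+APS against chow, against the same shares of all features. Chow 2 was the lowest array for the Kupffer and endothelial sums, and for Pltp, Abcg1 and Mylip. HFD 3 held the highest monocyte-derived macrophage sum and a neutrophil marker sum of 49.7, against 7.21 and 4.56 in HFD 1 and HFD 2. The summed signal of 2 of 6 genes listed as adipocyte markers, Cidea and Cfd, was 0.526, 0.677 and 0.63 in HFD+APS, 89.8, 10.6 and 35.5 in HFD, and 5.6, 0.324 and 0.229 in chow. The other 4 (Adipoq, Plin1, Retn and Lep) were not among the tested features, so this sum cannot show whether adipocytes were present. The sum of Cidea and Cfd was higher in every HFD liver than in all others. Cidea rose in HFD against chow and fell in HFD+APS against HFD. Over 9 stellate cell markers the sum was 185.2 to 211.1 in HFD+APS, 183.4 to 206.1 in HFD and 120.5 to 197 in chow. Of these 9, Col1a1 and Col3a1 rose in HFD against chow. At an unadjusted p under 0.05 were 3 in HFD against chow, 3 in HFD+APS against HFD and 1 in HFD+APS against chow, against the same shares of all features. The 7 tested lymphocyte markers of 8 had a median log2 difference of -0.72 in HFD against chow, where Cd4 fell. The part of these cells in the 3 genes' differences was not tested.

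**Figure D4:**
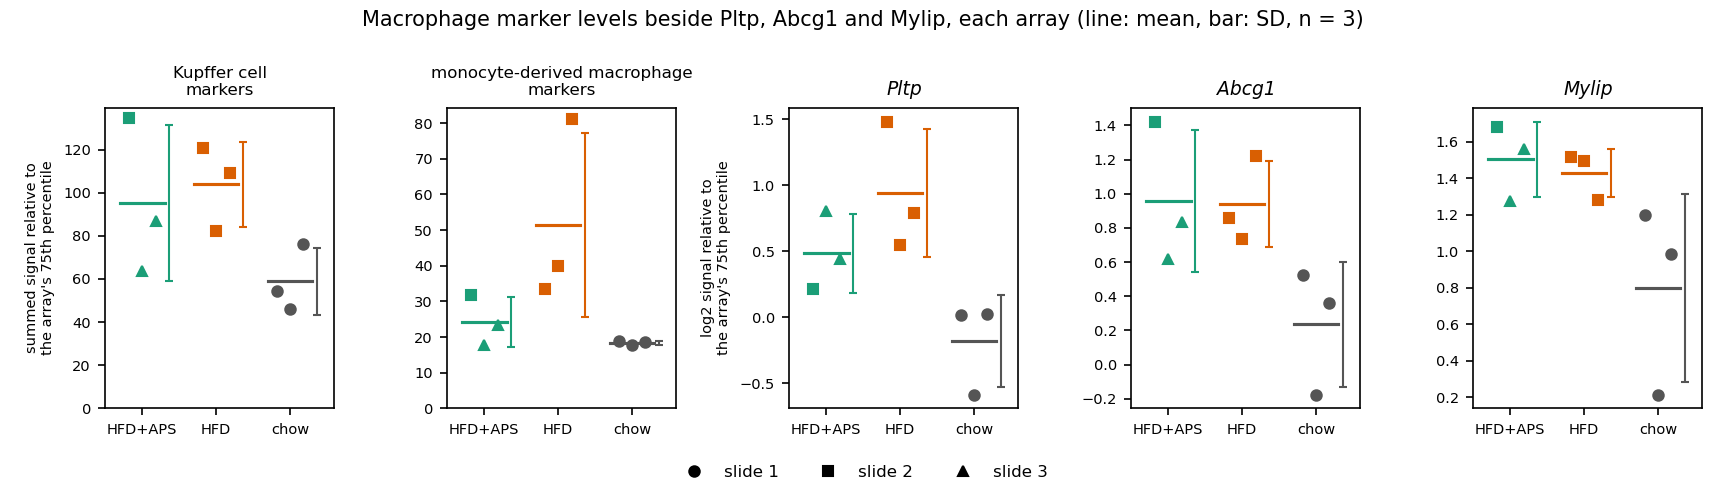
Summed signal of Kupffer cell and monocyte-derived macrophage markers (linear, relative to the array's 75th percentile) beside the log2 levels of Pltp, Abcg1 and Mylip, for HFD+APS, HFD and chow; points are arrays, shaped by slide, lines are means and bars are SDs (n = 3). The HFD livers lay at 82.2 to 120.7 for the Kupffer sum and the chow livers at 45.9 to 76.3, and the 3 genes were also higher in every HFD liver than in every chow liver.

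For genes past the threshold, the most alike of all tested genes were found by Pearson's r over the 9 arrays. Pltp was nearest to Rhoa (r = 0.98), Ppp1ca (0.975) and Churc1 (0.958), and Scarb1 to Gpatch1 (0.944), Cnot2 (0.939) and Sh3gl1 (0.935). These values describe 9 arrays in 3 diet groups on 3 slides, which the genes share.

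Beyond the 10 genes, 7 lists of 120 genes of lipoprotein and sterol handling were set beside them, of which 113 were tested. In HFD against chow 9 rose and 3 fell, in HFD+APS against HFD 0 rose and 1 fell, and in HFD+APS against chow 1 rose and 1 fell, with medians of 0.03, -0.03 and 0.04. Over all features 10.9%, 1.5% and 3.47% passed in these comparisons, so the calls in the lists, both directions together, are near the background or below it. By direction, 4.55% of all features rose and 6.38% fell in HFD against chow. The share of list genes that rose there was above the first and the share that fell below the second. The lists were not tested as sets. Among 22 HDL particle proteins and enzymes, Apoa4, an apolipoprotein of HDL and chylomicrons, and Vnn1, a pantetheinase, rose in HFD against chow. Apoa4 was at 3.91, 3.27 and 1.89 in HFD+APS, 5.64, 5.73 and 5.16 in HFD, and 2.35, 1.42 and 2.20 in chow. It stood higher in all HFD livers than in all others, by 3.52 ± 0.49 over chow (limma adjusted p = 0.00944), and HFD+APS differed from HFD by -2.49 ± 0.49 (limma adjusted p = 0.0531). Vnn1 rose by 1.07 ± 0.19 in HFD (limma adjusted p = 0.0178).

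Apoa1, the main protein of HDL, had levels of 7.94, 8.30 and 8.14 in HFD+APS, 7.78, 7.44 and 7.15 in HFD, and 7.91, 7.60 and 7.94 in chow. The HFD+APS livers lay above the HFD livers, as for Scarb1 and Apom, and the difference of 0.67 ± 0.18 did not pass (limma adjusted p = 0.12). Lipc, hepatic lipase, stood at 0.70 ± 0.25 in HFD+APS against HFD with overlapping groups (limma adjusted p = 0.194), and Apoe at -0.16 ± 0.15 (limma adjusted p = 0.598). Pdzk1, the adaptor that holds scavenger receptor B1 at the hepatocyte surface, stood at -0.06 ± 0.13 in HFD+APS against HFD (limma adjusted p = 0.848) with overlapping groups.

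Of 18 genes of sterol sensing and its coregulators 0 passed in limma in each comparison (2 in HFD against chow, 3 in HFD+APS against HFD and 2 in HFD+APS against chow at an unadjusted p under 0.05, against 31.4%, 17.9% and 25.2% of all features). Nr1h3, which encodes LXR alpha, stood at 0.03 ± 0.10 in HFD+APS against HFD (limma adjusted p = 0.905) and 0.18 ± 0.10 in HFD against chow (limma adjusted p = 0.271). Nr1h2, which encodes LXR beta, was at 1.76, 1.79 and 1.80 in HFD+APS, 1.37, 1.51 and 1.47 in HFD, and 1.56, 1.80 and 1.57 in chow. The HFD livers were the lowest, and HFD+APS stood 0.33 ± 0.10 above them (limma adjusted p = 0.151). Among 16 other LXR targets, Smpdl3a, a phosphodiesterase, rose in HFD by 0.59 ± 0.12 (limma adjusted p = 0.0259), while Srebf1, the regulator of fatty acid synthesis, stood at 0.16 ± 0.40 in HFD against chow (limma adjusted p = 0.819) and Cyp7a1, the rate-limiting enzyme of bile acid synthesis, at -0.14 ± 0.54 (limma adjusted p = 0.89).

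Among 10 lipoprotein receptors and their partners, Cd36, a scavenger receptor that takes up fatty acids and oxidised LDL, had the smallest adjusted p of all list genes in HFD against chow. Its level was 1.82, 1.51 and 1.77 in HFD+APS, 3.44, 3.36 and 3.51 in HFD, and 1.14, 1.81 and 1.17 in chow. It was high in all HFD livers, rising by 2.07 ± 0.19 against chow (limma adjusted p = 0.00204), and fell in HFD+APS against HFD, with a difference of -1.74 ± 0.19 (limma adjusted p = 0.01). Lrpap1, a chaperone of lipoprotein receptors, rose in HFD by 0.37 ± 0.09 (limma adjusted p = 0.0371), and Sort1, a sorting receptor, fell in HFD by 1.07 on the log2 scale (limma adjusted p = 0.0191).

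Of 20 genes of intracellular cholesterol transport and storage, Soat1, which makes cholesteryl ester, rose in HFD by 0.89 ± 0.23 (limma adjusted p = 0.0434) and Osbpl5, an oxysterol-binding protein family member, by 1.45 ± 0.31 (limma adjusted p = 0.0294). Gramd1a, which moves cholesterol from the plasma membrane to the endoplasmic reticulum, fell against chow in HFD+APS (-0.43 ± 0.09, limma adjusted p = 0.0442) and in HFD (-0.36 ± 0.09, limma adjusted p = 0.04). Cav1, the coat protein of caveolae, rose in HFD+APS against chow by 1.99 ± 0.40 (limma adjusted p = 0.0409). Npc1, which exports cholesterol from lysosomes, was lower in all HFD livers than in all others, at -0.48 ± 0.15 from chow (limma adjusted p = 0.075), with HFD+APS 0.44 ± 0.15 above HFD (limma adjusted p = 0.186). Of 19 other lipid-transporting ABC genes, the peroxisomal transporter Abcd2 rose in HFD by 1.18 ± 0.29 (limma adjusted p = 0.0394), and Abca6 fell by 0.82 on the log2 scale (limma adjusted p = 0.0469). Abcb11, the bile salt export pump, and Abcb4, the phospholipid transporter of the canaliculus, stood at 0.12 ± 0.17 and 0.23 ± 0.15 in HFD+APS against HFD (limma adjusted p = 0.747 and 0.443). Of 12 phospholipid remodelling enzymes 0 passed in limma in each comparison (2, 1 and 2 in the same order at an unadjusted p under 0.05, against 31.4%, 17.9% and 25.2% of all features).

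Of the 12 calls in these lists in HFD against chow, 2 (Apoa4 and Cd36) were kept whichever array was left out. The other 10 were each lost without at least 2 of the arrays, from chow 3 or HFD 2 for Vnn1 to every array but HFD+APS 1 for Lrpap1 and Gramd1a, at adjusted p up to 0.131. Each chow and each HFD array, HFD+APS 2 and HFD+APS 3 decided at least 1 of these calls, and the call of Cd36 in HFD+APS against HFD was kept in all 9 such fits (highest adjusted p = 0.0458). Cav1 lost its call in HFD+APS against chow without chow 2, chow 3, HFD 2, HFD+APS 2 or HFD+APS 3 (highest adjusted p = 0.141), and Gramd1a its call there without any 1 of 7 arrays, all but HFD 3 and HFD+APS 1 (highest adjusted p = 0.144).

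**Figure D5:**
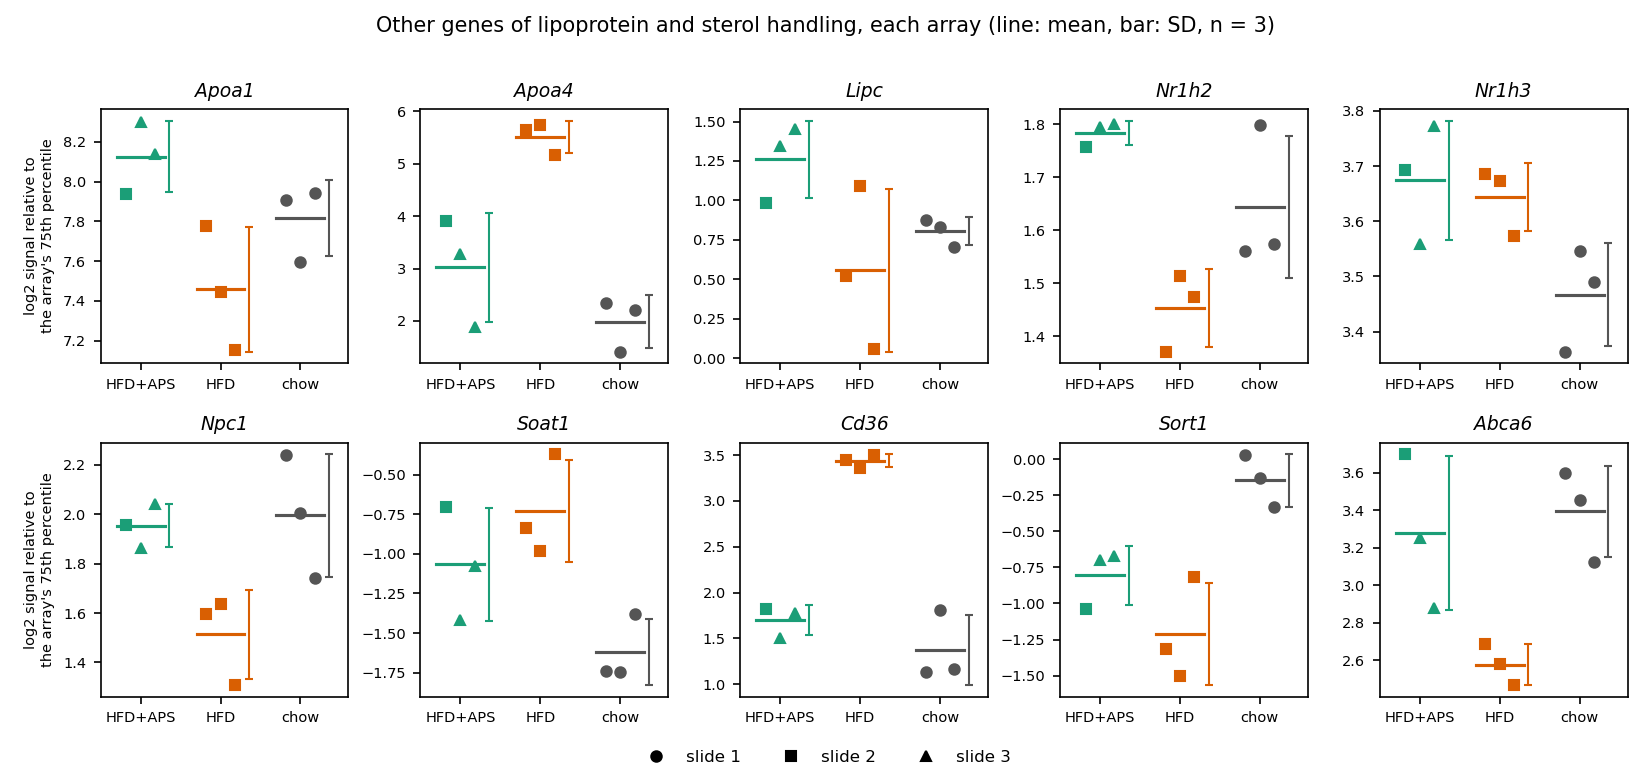
Log2 signal (y axis, 0 is the array's 75th percentile) of 10 other genes of lipoprotein and sterol handling for HFD+APS, HFD and chow (x axis); points are arrays, shaped by slide, lines are means and bars are SDs (n = 3). Apoa4 and Cd36 were higher in every HFD liver than in every other liver, with Cd36 at 3.36 to 3.51 there and at or below 1.82 in all other livers.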

How the data were processed

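Total RNA of 9 mouse livers, 3 per diet, was hybridised to 9 Agilent 1-colour (Cy3) arrays. The authors used Feature Extraction, version 10.7.1.1 per the file headers and 10.7 per the submitters' notes. Its processed signal, an intensity, is per the file headers corrected for background within the array and not scaled between arrays. The authors' deposited table of values is on the log2 scale, as judged from the values themselves, with a correlation of 0.9969 to 0.9999 with the log2 processed signal and column medians of 4.98 to 5; its values are not centred by gene, and its normalization step is not given in the sources used here. limma is named in those notes, with no role given.

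Here the signals were read in R 4.3.3. Of 45018 spots, 1639 controls were left out with non-uniform and population outlier spots, log2 values of repeated spots were averaged, and the 75th percentile of each array was taken off. Probes were kept if well above background on at least 3 of 9 arrays, and a gene was represented by its brightest probe. Names came from RefSeq for 27668 probes by accession, 5589 by symbol and 471 by synonym; 7446 kept the file's name. Whether a probe lies in a coding exon or a UTR was not determined, and probe positions are on mm9 per the file headers. limma 3.58.1 (lmFit, eBayes) was fitted on all 9 arrays without covariates (6 residual and 2.2 prior degrees of freedom), 2-sided, with Benjamini-Hochberg adjustment over all 17636 features and a threshold of 0.05; 5 values were missing. The fit was tested on simulated data. Values are means ± SD or differences ± SE; the number of arrays limits their precision. The slide follows from the barcodes in the file names. Alternatives were normexp, quantile normalization, the deposited table, other filters, the mean of a gene's probes, slide blocks, array weights, 2-group fits, a replicate block and leaving out each array.

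The 10 genes, the 7 lists and the cell markers were chosen with earlier results of these data known. The genes named are the 10 with every probe, list genes past the threshold in any comparison, 12 list genes whether or not they passed, and the 3 genes most alike to each of the 10 that passed; other markers are named after their values were seen. Some of these list genes are counted but not reported here.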

Additional observations from a re-analysis of the deposited data

How the results depend on the processing

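Each difference was recomputed under the alternatives and without each array. Outside the fits without an array, 292 of 320 results kept their direction and their side of the threshold (or stayed within the replicate spread), as did 243 of 270 in the fits without 1 array.

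The number of the 10 genes called, 1 in HFD against chow, 0 in HFD+APS against HFD and 1 in HFD+APS against chow, changed as follows. With normexp it was 2 in HFD+APS against HFD (Apom and Scarb1) and 2 in HFD+APS against chow (Abcg5 and Scarb1). With probes above background on all 9 arrays it was 1 (Apom) and 2 (Abcg5 and Scarb1) in these comparisons, and with array weights 2 (Apom and Scarb1) and 3 (Abcg5, Abcg8 and Scarb1). With no filter on dim probes, slide as a random block, or only the 2 groups compared, it was 0 in HFD against chow and 0 in HFD+APS against chow. The replicate block, fitted although same-numbered arrays did not deviate together (correlations of -0.17 to 0.16, so the numbers do not pair the livers), also gave 0 and 0. Leaving out 1 array gave 0 to 1 in HFD against chow and 0 to 0 in HFD+APS against chow. The cause of these changes was not tested.

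Signs turned only for differences near 0 or for dim probes. Lpcat3 was 0.042 in HFD+APS against HFD with normexp, -0.00095 in HFD against chow and -0.034 in HFD+APS against chow with quantile normalization, and -0.043 in HFD+APS against chow in the deposited table. Abcg8 was -0.16 in HFD against chow as the mean of its probes, and with array weights Abca1 was 0.021 and Abcg1 -0.020 in HFD+APS against HFD. Without 1 array, Lpcat3 ran from -0.043 to 0.12 in HFD against chow and -0.067 to 0.096 in HFD+APS against chow, and Lcat from -0.13 to 0.045 in HFD against chow. In HFD+APS against HFD, Abcg1 ran from -0.21 to 0.19, Abca1 from -0.069 to 0.051 and Mylip from -0.011 to 0.19.

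Over all features 1927 were called in HFD against chow, 265 in HFD+APS against HFD, and 612 for HFD+APS against chow. In that order they were 798, 79 and 221 with no filter, 684, 164 and 158 with slide as a random block, 3071, 1269 and 3182 with array weights, and 365 to 2711, 51 to 578 and 21 to 1609 without 1 array. With only the 2 groups compared HFD+APS gave 25 against HFD and 344 against chow, and with the replicate block 82 and 296. Dim probes limit Abcg8 and Mylip, whose second probes were below the background call on some arrays.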
